A study of Mus musculus with 6 samples.

Results

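The immediate early response genes are a set of 10 genes of this series, Fos, Fosb, Jun, Junb, Egr1, Atf3, Ier2, Dusp1, Nr4a1 and Zfp36. They were taken by symbol from the 24959 genes of the deposited count table, and all 10 were found and had enough reads to be tested. The samples were 6 RNA-seq libraries labelled as mouse dental epithelial cells of postnatal day 0. There were 3 control libraries, labelled wild type, and 3 from a conditional knockout of Pkm (Pkm cKO), which encodes the M forms of pyruvate kinase, a glycolytic enzyme. No other allele, agent or treatment is named in the labels. They call the libraries biological replicates but do not state the strain, the Cre driver or the number of animals behind a library, so a p-value here covers only the variation among these 6 libraries.

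Immediate early genes are switched on within minutes of a stimulus, without the need for new protein, by factors already present in the cell, such as SRF with its ternary complex partners and CREB, which are acted on by the ERK, JNK and p38 kinases. Their transcripts are short-lived, so a level reflects the recent past of the tissue. Most encode transcription factors, and some, such as Dusp1 and Zfp36, shut the response down. The same genes are known to respond to tissue dissection and enzymatic dissociation, often together with inducible heat shock genes.

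Total counts ran from 30588350 to 39415700 per library. Pkm, the check of the labels, stood at 1281, 1185 and 1049 CPM (counts relative to library size, with TMM scaling) among controls and 309, 395 and 350 CPM among cKO libraries. Krt5, an epithelial keratin, was abundant in all 6 libraries, at 6358 to 7552 CPM among controls and 4688 to 5742 CPM among cKO libraries. Amelx, which encodes amelogenin, was present in all but varied widely. It stood at 18617, 15596 and 8564 CPM among controls and 4136, 343 and 122 CPM among cKO libraries (log2 fold change -3.22, edgeR adjusted p 0.387). The groups did not overlap for either gene. Col1a1 (9097 to 27446 CPM) and Col1a2 (4340 to 9622 CPM), collagen genes of mesenchyme, were abundant as well, so the libraries were not pure epithelium by these markers. Cdh5 (86.7 to 183 CPM) and Pecam1 (61.3 to 136 CPM) of endothelium were present in all, as were the red cell globin genes Hba-a1, at 81.0 to 220 CPM, and Hbb-bs, at 142 to 433 CPM. Pkm cKO replicate 3 stood apart by the summed level of 8 skeletal muscle markers, 3184 CPM against 20.0 and 88.8 CPM in the other cKO libraries and up to 7.02 CPM in the controls. Its Acta1, skeletal actin, stood at 769 CPM and its Myh3, the embryonic muscle myosin, at 760 CPM. Control replicate 2 stood apart by the immediate early genes themselves, so each of these genes is compared with and without it.

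None of the 10 genes differed between the genotypes past the threshold. The log2 fold change (cKO minus control) was below 0 for 8 members and above 0 for 2, from -1.20 for Atf3 to 0.27 for Ier2, with a median of -0.45 against 0.01 over all tested genes. In edgeR's quasi-likelihood test with Benjamini-Hochberg adjustment over 15930 tested genes, 0 of 10 members had an adjusted p under 0.05, where 0.552% of all tested genes did (0.345% higher and 0.207% lower in cKO libraries). The adjusted p of the members ran from 0.352 to 0.920. At an unadjusted p under 0.05 the count was also 0 of 10, against 17.5% of all tested genes. DESeq2 passed 0 members (6.89% of all tested genes) and had 3, Fos, Egr1 and Atf3, at an unadjusted p under 0.05 (18.6%), and limma-voom had 0 by either measure (0.0126% and 17.2% of all tested genes). With the replicate number as a block edgeR passed 0 members (4.44%) and had 2, Atf3 and Dusp1, at an unadjusted p under 0.05 (19.6%). The groups overlapped for all 10 members, where they did not overlap for 23.3% of all tested genes. Of the 30 cKO values, 21 lay within the range of the controls for that gene, 7 below it and 2 above it. Control replicate 2 set the top of that range for all 10 genes. No such share was taken over all tested genes, so these counts do not say that the genotypes were alike. Marker levels of the tissue also varied between the groups. The 12 epithelial markers summed to 24595 to 40466 CPM among controls and 10071 to 15646 CPM among cKO libraries (9 of 12 with a log2 fold change below 0), and the 12 mesenchymal markers to 20100 to 31744 and 18747 to 40659 CPM (10 of 12 above 0), with 0 of 12 past the threshold in both lists. Past the threshold were 3 of 5 tested erythroid markers, Hba-a1 and Hbb-bs among them, all lower in cKO libraries (0.207% of all tested genes). Of 10 immune markers 1 was called higher (0.345% of all tested genes), and of 8 endothelial and 8 muscle markers 0 were called. The part of these marker differences in the values of the 10 genes was not tested.

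**Figure D1:**
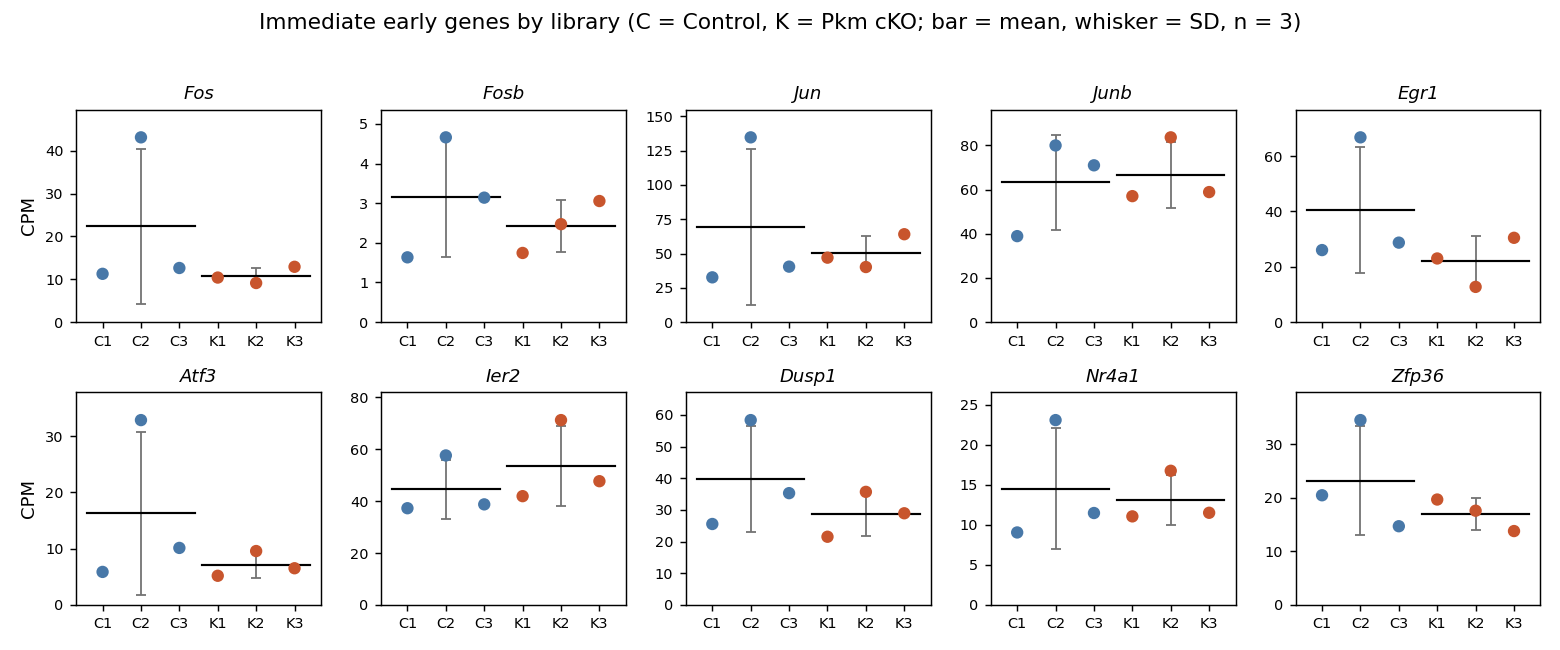
CPM of each of the 10 genes (vertical axis, from 0) in control replicates 1 to 3 (C1 to C3, blue) and Pkm cKO replicates 1 to 3 (K1 to K3, orange), with the mean as a bar and the SD as a whisker (n = 3 each). Control replicate 2 is the highest library for 8 of the 10 genes, and Pkm cKO replicate 2 for Junb and Ier2.

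Fos, Fosb, Jun and Junb form the Fos and Jun subfamilies of AP-1, basic leucine zipper proteins that bind DNA in pairs. Fos, the founding immediate early gene and a partner of Jun, stood at 11.3, 43.1 and 12.6 CPM in control replicates 1 to 3 and at 10.4, 9.13 and 12.9 CPM in Pkm cKO replicates 1 to 3. Control replicate 2 was high and the other 5 libraries lay close together. The means were 22.3 ± 18.0 and 10.8 ± 1.93 CPM (SD, n = 3 each), and the log2 fold change of -1.05 (SE 0.520, edgeR adjusted p 0.352) became -0.15 (SE 0.290, edgeR adjusted p 0.890) without control replicate 2. In bulk samples such as these, fewer cells that express a gene and less RNA per cell cannot be told apart.

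Fosb, a relative of Fos with the lowest level per length of the 10, had 1.63, 4.66 and 3.14 CPM among controls and 1.74, 2.47 and 3.05 CPM among cKO libraries, from 54 to 180 reads. All 3 cKO values lay inside the range of the controls, and the log2 fold change of -0.37 (SE 0.446) moved to 0.017 (SE 0.512) without control replicate 2. Jun, which encodes the main JNK substrate of the family, stood at 32.6, 135 and 40.4 CPM among controls and 47.0, 40.2 and 64.1 CPM among cKO libraries. All 3 cKO libraries lay within the range of the controls, near or above control replicate 3 and far below replicate 2. The sign of the difference rested on replicate 2, with a log2 fold change of -0.46 (SE 0.590) over 6 libraries and of 0.46 (SE 0.253) without it (edgeR adjusted p 0.745 and 0.553). Junb, a Jun relative that acts as a weaker activator, had 38.9, 79.9 and 71.0 CPM among controls and 57.0, 83.6 and 58.8 CPM among cKO libraries. It differed from Fos and Jun in that control replicate 3 was nearly as high as replicate 2 and Pkm cKO replicate 2 was highest of all. Its log2 fold change was 0.07 (SE 0.268, 95% interval -0.53 to 0.68), and 0.27 (SE 0.291) without control replicate 2.

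The next 4 members are regulators outside the Fos and Jun subfamilies. Egr1, a zinc finger factor induced through SRF, stood at 26.0, 66.8 and 28.7 CPM among controls and 23.0, 12.7 and 30.5 CPM among cKO libraries. Pkm cKO replicate 2 had the lowest level and control replicate 2 the highest, and the cKO libraries spread nearly as far as the controls, 2.39-fold against 2.56-fold from lowest to highest. The log2 fold change was -0.88 (SE 0.449, edgeR adjusted p 0.367), and -0.32 (SE 0.341, edgeR adjusted p 0.787) without control replicate 2. Atf3, a stress-induced factor of the ATF/CREB group that can also pair with Jun proteins within AP-1, had the widest range in controls, with 5.85, 32.8 and 10.1 CPM against 5.17, 9.56 and 6.51 CPM among cKO libraries. Its log2 fold change was the lowest of the 10 at -1.20 (SE 0.639, edgeR adjusted p 0.390) and moved to -0.18 (SE 0.396, edgeR adjusted p 0.907) without control replicate 2.

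Nr4a1, an orphan nuclear receptor, had 9.04, 23.1 and 11.5 CPM among controls and 11.0, 16.7 and 11.5 CPM among cKO libraries. All 3 cKO libraries lay within the range of the controls. Its log2 fold change of -0.15 (SE 0.349) changed sign to 0.35 (SE 0.311) without control replicate 2. Ier2, a nuclear protein of the early response, was the member with the highest log2 fold change, 0.27 (SE 0.242, 95% interval -0.27 to 0.81). It stood at 37.3, 57.6 and 38.8 CPM among controls and 41.9, 71.3 and 47.7 CPM among cKO libraries, so that without control replicate 2 all 3 cKO libraries were above the controls that remained (log2 fold change 0.49, SE 0.260, edgeR adjusted p 0.534). It was the 1 member of 10 whose groups then did not overlap, where 14.1% of all tested genes were higher and 15.1% lower in that way.

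The last pair limits the response. Dusp1, a nuclear phosphatase that inactivates MAP kinases, stood at 25.5, 58.4 and 35.3 CPM among controls and 21.5, 35.7 and 28.9 CPM among cKO libraries, with control replicate 2 highest and Pkm cKO replicate 1 lowest. The log2 fold change was -0.47 (SE 0.306, edgeR adjusted p 0.475), and -0.09 without control replicate 2. Zfp36, which encodes tristetraprolin, a protein that speeds the decay of AU-rich mRNAs, had 20.5, 34.6 and 14.7 CPM among controls and 19.7, 17.6 and 13.8 CPM among cKO libraries. Here control replicate 3, not 1, was the lowest control, and the log2 fold change of -0.45 (SE 0.303, edgeR adjusted p 0.486) moved to -0.05 without control replicate 2.

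**Figure D2:**
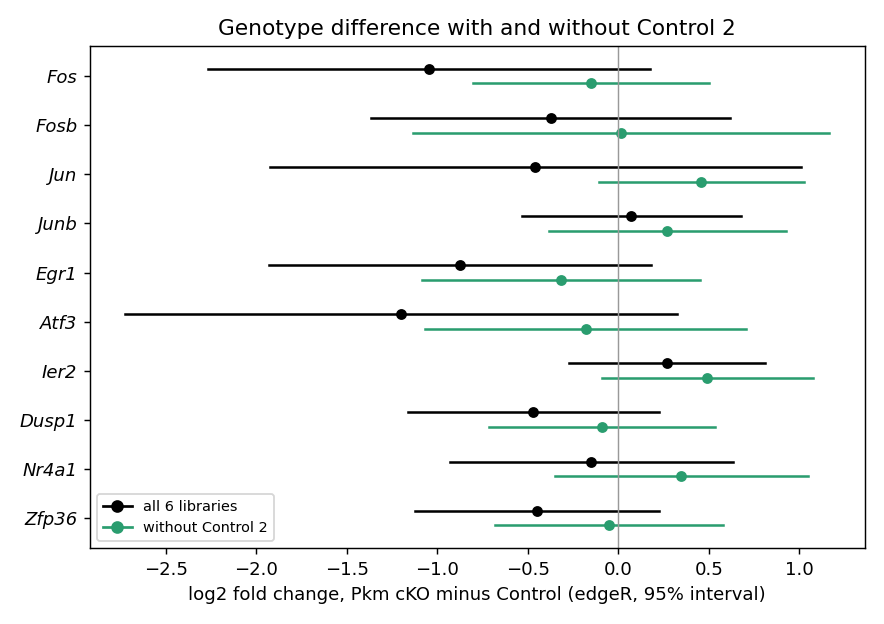
Log2 fold change, Pkm cKO minus control, of each gene (horizontal axis) with its 95% interval from edgeR, over all 6 libraries (black) and without control replicate 2 (green). Every interval spans 0, and the green points lie to the right of the black ones. Control replicate 2 was the highest control for each gene, so the direction of that shift was fixed in advance.

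Control replicate 2 was singled out by these same genes and was the highest control for all 10. Leaving it out therefore had to raise their log2 fold changes. Without control replicate 2 the members split evenly, 5 above and 5 below 0, and their median log2 fold change was -0.018 against -0.0029 over the genes tested in both fits. edgeR then passed 0 of 10 members and 0% of all tested genes, with 0 members at an unadjusted p under 0.05 against 10.8% of all. These fits do not show that the genotypes had equal levels: with 3 libraries a group the 95% interval of Fos reached from -2.27 to 0.17 and that of Atf3 from -2.72 to 0.32, while the narrowest, that of Ier2, reached from -0.27 to 0.81.

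The larger differences among these genes lay within the control group. Control replicate 2 was the highest control for all 10 members and the highest of the 6 libraries for 8, where it was the highest library for 9.97% of all tested genes. Against the mean of the other two controls it was at 4.11-fold for Atf3, 3.69-fold for Jun, 3.61-fold for Fos, 2.44-fold for Egr1 and 2.25-fold for Nr4a1. The remaining 5 members ranged from 1.46-fold for Junb to 1.96-fold for Zfp36. Of the 10 members 5 were thus at least 2-fold higher in that library (on log2 of CPM + 0.5), where 0.527% of all tested genes, 84 in number, were. No member was 2-fold above the rest of its group in any of the other 5 libraries, where 0.239% and 0.301% (control replicates 1 and 3) and 3.19%, 1.35% and 4.63% (Pkm cKO replicates 1 to 3) of all tested genes were. At least 2-fold below it were 4 members in control replicate 1, 2 in control replicate 3 and 1 in Pkm cKO replicate 2. For these controls the rest of the group included control replicate 2. The share of all tested genes 2-fold below was not taken. The median SD of log2 CPM among controls was 0.72 for the members and 0.20 for all tested genes, and among cKO libraries 0.35 and 0.33.

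**Figure D3:**
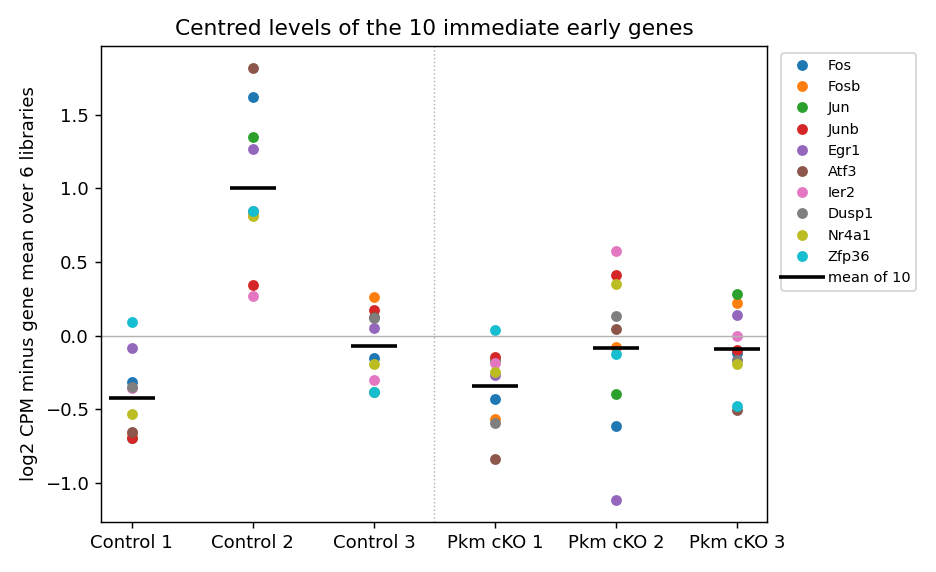
Log2 CPM of each gene minus its mean over the 6 libraries (vertical axis), by library (horizontal axis), 1 colour a gene, with the mean of the 10 genes as a black bar. The bar stands at 1.00 in control replicate 2 and between -0.42 and -0.07 in the other 5 libraries.

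Control replicate 2 lay between the other controls by some measures of the whole library and outside them by others. Its total count was 38888685, between 38130829 and 39415700 for control replicates 1 and 3, and mitochondrially encoded genes took 1.39% of its counts, between 1.09% and 1.64%. On the first principal component of all tested genes it stood at -39.9, between -52.2 and -25.4, but on the second at 10.7, below 13.4 and 20.6. It had the most genes with a read among controls, 20784 against 20227 and 20337, and the highest TMM factor, 0.994 against 0.964 and 0.978. Xist, the transcript of the inactive X chromosome in female cells, belongs to no list here and was named after its values were seen. Its level was 516 CPM in control replicate 2, 230 and 43.0 CPM in control replicates 1 and 3, and 320 to 484 CPM among cKO libraries. The part of these differences in the level of the 10 genes was not tested. Summed marker levels of other cell types were near or below those of the other controls, with 69.5 CPM of 10 immune markers against 69.1 and 66.2 CPM, 373 CPM of 8 endothelial markers against 441 and 421 CPM, and 574 CPM of 5 erythroid markers against 677 and 801 CPM. The 12 epithelial markers summed to 35072 CPM, between 40466 and 24595 CPM, and the 12 mesenchymal markers to 31744 CPM against 30671 and 20100 CPM. Myh3 had no read in control replicate 2.

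The cKO libraries did not share 1 order for the 10 genes. Pkm cKO replicate 2 was the highest cKO library for Junb, Atf3, Ier2, Dusp1 and Nr4a1 and the lowest for Fos, Jun and Egr1. Pkm cKO replicate 3, the library with the muscle transcripts, was the highest cKO library for Fos, Fosb, Jun and Egr1 and the lowest for Zfp36. Pkm cKO replicate 1 was the highest for Zfp36 alone. Without Pkm cKO replicate 3 the median log2 fold change of the 10 genes was -0.52 and without replicate 2 it was -0.43, so the median stayed below 0. Single genes did depend on replicate 2. Without it the log2 fold change of Junb fell below 0, to -0.12, and that of Ier2 fell to 0.013.

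The promoters of 5 members are shown, 4 that hold a shared stretch of letters and Jun, which does not. RefSeq promoters of build GRCm38.p6 were matched by symbol for 8 of the 10 genes, all but Egr1 and Ier2, while the counts were made on build mm39. The stretches below are the 150 bases before the annotated start, 5′ to 3′ on the gene's strand, and capitals mark TGACG or its reverse complement, the core of the cyclic AMP response element (CRE) bound by CREB and ATF proteins. The positions are chr12:85473740-85473889 (plus strand) for Fos, chr15:101266696-101266845 (plus strand) for Nr4a1, chr17:26508473-26508622 (minus strand) for Dusp1, chr8:84978749-84978898 (minus strand) for Junb and chr4:95052223-95052372 (minus strand) for Jun.
Fos: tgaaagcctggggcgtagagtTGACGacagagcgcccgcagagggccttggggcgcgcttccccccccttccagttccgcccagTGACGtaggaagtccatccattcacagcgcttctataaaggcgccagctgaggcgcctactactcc
Nr4a1: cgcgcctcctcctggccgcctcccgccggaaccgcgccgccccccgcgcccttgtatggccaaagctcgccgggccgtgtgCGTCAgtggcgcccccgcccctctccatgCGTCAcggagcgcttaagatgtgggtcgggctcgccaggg
Dusp1: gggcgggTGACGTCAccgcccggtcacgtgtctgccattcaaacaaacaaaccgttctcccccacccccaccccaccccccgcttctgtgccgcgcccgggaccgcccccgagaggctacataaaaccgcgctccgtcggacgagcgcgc
Junb: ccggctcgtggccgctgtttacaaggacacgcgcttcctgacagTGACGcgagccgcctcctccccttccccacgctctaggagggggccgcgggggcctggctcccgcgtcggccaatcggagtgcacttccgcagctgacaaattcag
Jun: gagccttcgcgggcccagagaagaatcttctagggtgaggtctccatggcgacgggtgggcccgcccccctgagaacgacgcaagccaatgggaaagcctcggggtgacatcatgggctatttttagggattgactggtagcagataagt

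Over the 250 bases before the start and on both strands, TGACG was present in 6 of the 8 promoters (Fos, Fosb, Junb, Atf3, Dusp1 and Nr4a1), and in 17.8% of 32851 promoters of the table. Fos held it at 66 to 62 bases before the start and again at 129 to 125, and Nr4a1 held it 4 times. The whole palindrome TGACGTCA, which contains TGACG on both strands, was in Dusp1 alone of the 8, at 143 to 136 bases before the start, and in 1.55% of all promoters. The GC box GGGCGG was in 7 of 8 promoters against 32.7% of all, and TATAAA in Fos alone against 12.4% of all. The SRF site called the CArG box was found in Zfp36 alone, at 58 to 49 bases before the start, and in 1.47% of all. The AP-1 site TGACTCA (4.46% of all) and the EGR site GCGTGGGCG (0.536% of all) were in none of the 8. The heat shock factor core GAANNTTC was in Jun alone, against 6.69% of all. Only these exact patterns within 250 bases were searched. Sites with other letters or further upstream were not counted, so a gene without a match may still hold such a site.

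Levels of different genes were compared per kilobase of exon (CPM per kb, exon lengths from GENCODE M21). Junb led with 35.0 ± 11.9 in controls and 36.8 ± 8.21 in cKO libraries (SD, n = 3 each), followed by Ier2 with 29.3 ± 7.46 and 35.2 ± 10.2, and these neighbours did not differ beyond their spread. Jun (21.7 ± 17.8 and 15.8 ± 3.86) and Dusp1 (16.7 ± 7.10 and 12.1 ± 2.99) came next, with overlapping spreads. Fos, Egr1, Zfp36, Atf3 and Nr4a1 had means over the 6 libraries from 5.16 to 7.87 CPM per kb and could not be ordered beyond their spread. Fosb was lowest with 0.831 ± 0.400 and 0.641 ± 0.174 CPM per kb.

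The other genes of the pathway gave 1 call. Of 12 tested AP-1 relatives, 1 was called higher in the cKO libraries and 0 lower, against 0.345% and 0.207% of all tested genes. This was Jdp2, a dimerization partner of Jun that represses AP-1 sites, with 7.43, 6.60 and 8.90 CPM among controls and 20.1, 16.9 and 24.4 CPM among cKO libraries (log2 fold change 1.42, edgeR adjusted p 0.0444). All 3 cKO libraries were above all controls. With limma-voom, without robust estimation, or with any 1 control left out, 0 genes of the table were called higher, so this call was lost there. Unlike the members, Jdp2 was not raised in control replicate 2, at 0.808 times the mean of the other controls. Batf3, an AP-1 factor best known from dendritic cells, had 30 to 58 reads among controls and 50 to 159 reads among cKO libraries (log2 fold change 1.26, edgeR adjusted p 0.226). Jund, the Jun relative that is present without a stimulus and the list's most abundant gene by CPM, had 206 to 252 CPM among controls and 208 to 435 CPM among cKO libraries.

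Of 15 tested further early transcription factors, 0 were called in either direction (0.552% of all tested genes were). At an unadjusted p under 0.05 there were 3 of 15, all higher in cKO libraries, against 17.5% of all tested genes. Cebpd, a C/EBP factor of the acute phase response, stood at 4.17, 7.12 and 7.16 CPM among controls and 17.6, 11.0 and 17.3 CPM among cKO libraries (log2 fold change 1.31, edgeR adjusted p 0.0796). Its groups did not overlap, as those of Klf2, a flow-responsive factor of endothelium, did not (8.85 to 11.7 against 14.0 to 17.4 CPM). Klf4, an epithelial differentiation factor and the most abundant by CPM, had 341 to 378 CPM among controls and 247 to 376 CPM among cKO libraries. Markers of immune cells, in which Cebpd is also expressed, had log2 fold changes above 0 for 10 of 10 genes, with sums of 66.2 to 69.5 CPM among controls and 119 to 205 CPM among cKO libraries, Csf1r at 12.4 to 19.9 against 28.5 to 56.8 CPM and Laptm5 at 9.99 to 10.5 against 16.9 to 41.0 CPM. Their part in the values of Jdp2, Batf3 and Cebpd was not tested.

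Of 24 tested early effectors, 0 were called, against 0.552% of all tested genes. At an unadjusted p under 0.05 there were 8 of 24, 2 higher and 6 lower, against 17.5% of all tested genes, 1524 higher and 1258 lower of 15930. Gadd45b, a stress sensor that acts on p38 signaling, stood at 73.3, 102 and 62.9 CPM among controls and 43.2, 37.6 and 20.8 CPM among cKO libraries (log2 fold change -1.23, edgeR adjusted p 0.0890). Its groups did not overlap, and control replicate 2 was the highest library, as it was for 8 of the 10 members. Nfkbia, the NF-kappaB inhibitor, had 49.2 to 65.3 CPM against 76.3 to 101 CPM (log2 fold change 0.56, edgeR adjusted p 0.144). Rhob, a small GTPase and the list's most abundant gene by CPM, had 701, 500 and 380 CPM against 382, 235 and 146 CPM.

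Of 9 further MAP kinase phosphatases, 0 were called, against 0.552% of all tested genes. Higher at an unadjusted p under 0.05 was 1 of 9, where 17.5% of all tested genes passed in either direction. Dusp4, a nuclear phosphatase like Dusp1, had 2.64 to 5.98 CPM among controls and 6.56 to 10.3 CPM among cKO libraries (log2 fold change 0.92, edgeR adjusted p 0.219). Dusp7 (70.6 to 94.0 against 88.2 to 116 CPM) and Dusp9 (5.06 to 8.95 against 6.75 to 13.7 CPM), cytoplasmic ERK phosphatases, overlapped between the groups. Among 13 upstream SRF, ternary complex and CREB factors 0 were called, against 0.552% of all tested genes. An unadjusted p under 0.05 was found for 1 of 13, against 17.5% of all tested genes. The list's median log2 fold change was -0.02. Creb1 itself stood at 35.9 to 43.8 CPM among controls and 25.1 to 34.7 CPM among cKO libraries, Elk3, a ternary complex factor, at 53.3 to 58.8 against 63.4 to 82.8 CPM, and the coactivator gene Crebbp at 119 to 127 against 116 to 167 CPM.

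The 20 genes of the ERK, JNK and p38 cascades had 0 calls, against 0.552% of all tested genes. At an unadjusted p under 0.05, 1 of 20 was higher and 4 were lower, against 17.5% of all tested genes. The groups did not overlap for 8 of them, 1 higher and 7 lower in cKO libraries, against 11.2% and 12.2% of all tested genes. Map2k6, a kinase that activates p38, stood at 40.6, 37.9 and 30.6 CPM among controls and 24.0, 21.0 and 21.8 CPM among cKO libraries (log2 fold change -0.71, edgeR adjusted p 0.0997). Braf, which starts the ERK cascade, had 104 to 114 CPM against 56.6 to 85.7 CPM (log2 fold change -0.53, edgeR adjusted p 0.172), and Hras, the list's most abundant gene by CPM, 316 to 413 against 238 to 313 CPM. None of these 3 was raised in control replicate 2, which stood at 0.83 to 1.06 times the mean of the other controls.

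Some heat shock genes were high along with the members in control replicate 2. Of a list of 14 heat shock genes, 10 had their highest level in that library, against 9.97% of all tested genes. There, 3 were at least 2-fold above the other controls, against 0.527% of all tested genes. These were Hspa1a and Hspa1b, the inducible HSP70 genes, and Hsph1, a co-chaperone of HSP70, named after their values were seen. Hspa1a had 26.5, 373 and 62.7 CPM among controls and 30.7, 48.4 and 22.4 CPM among cKO libraries. Hspa1b had 58.3, 496 and 97.1 CPM against 66.4, 145 and 57.8 CPM, and as near-identical copies the pair may have shared reads. Hsph1 had 29.7, 97.8 and 23.6 CPM against 17.5, 29.2 and 20.9 CPM. Other genes of the list were closer to the other controls. Hsp90aa1, the inducible HSP90 gene, was at 1.71-fold and Dnajb1, an HSP70 partner, stood at 96.7 CPM against 59.8 and 69.1 CPM, while Dnajb4, Hspd1, Dnaja1, Hspb1, Hsf1 and Hspe1 ranged from 1.14-fold to 1.30-fold. Bag3, a stress-induced partner of HSP70, was at 0.984 times the mean of the other controls, with 92.6 CPM against 86.0 and 102 CPM. Hspa8 stood at 1349, 1299 and 1242 CPM among controls and 1103, 1040 and 913 CPM among cKO libraries, while Hsp90ab1, the list's most abundant gene by CPM, stood at 1834, 1953 and 2233 CPM against 2087, 2390 and 2469 CPM. Between the genotypes 0 of the 14 were called, against 0.552% of all tested genes. Hspa8 alone had an unadjusted p under 0.05, against 17.5% of all tested genes. Hspb1, a small heat shock protein gene, had 122 to 166 CPM against 82.4 to 130 CPM. The part of the heat shock response in the level of the members was not tested.

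**Figure D4:**
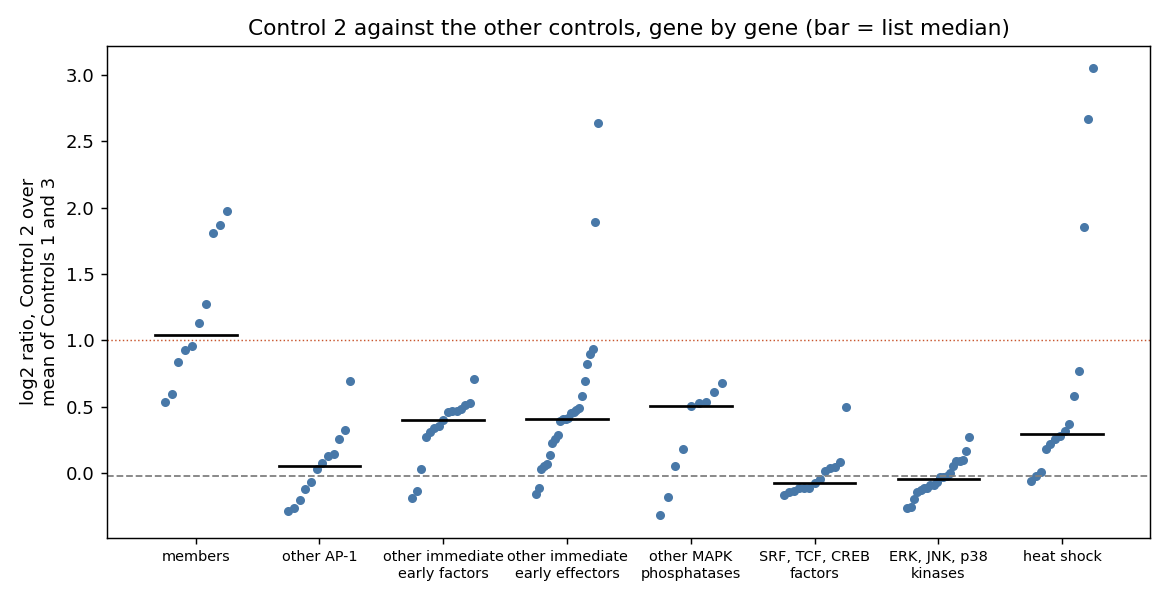
Log2 ratio of control replicate 2 to the mean of control replicates 1 and 3 (vertical axis, on CPM + 0.5) for each tested gene of 8 lists (points), with list medians (bars), the median of all tested genes (dashed line) and a 2-fold ratio (dotted line). The median is 1.04 for the 10 members and 0.29 for the heat shock list, whose top 3 genes stand at 1.86 to 3.05, while the upstream factors and kinases centre at -0.08 and -0.05.

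The median log2 ratio of control replicate 2 to the other controls was 0.40 for the further early transcription factors, 0.41 for the effectors, 0.50 for the further MAP kinase phosphatases and 0.05 for the AP-1 relatives, against -0.02 for all tested genes. Of the genes of these 4 lists 2 reached 2-fold, both effectors and named after their values were seen. Ccn1, a matricellular protein gene, had 13.6, 99.1 and 38.9 CPM among controls and 30.1, 32.7 and 67.1 CPM among cKO libraries. Arc, a gene best known as a synaptic early response gene, had 201 reads in control replicate 2 and 4 to 20 reads in the other 5 libraries.

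Outside the 10, the genes with the pattern most like theirs were sought among 11346 tested genes with a mean of at least 5 CPM, by the mean absolute difference over the 6 libraries between centred log2 CPM and the average of the members. Btbd8, a BTB-domain gene, came closest (0.14 on the log2 scale), with 10.1 CPM in control replicate 2 and 5.12 to 7.26 CPM elsewhere. Plau, the urokinase gene, followed (0.15), with 50.7 CPM against 20.4 to 26.5 CPM. Ier3, an early response gene of the effector list (0.17), had 31.7 CPM against 13.4 to 19.3 CPM. Ddit4, a stress-induced inhibitor of mTOR (0.18), had 237 CPM against 110 to 135 CPM, and Prdm1, a transcriptional repressor (0.19), 16.9 CPM against 8.24 to 14.5 CPM. The members themselves lay 0.16 (Dusp1) to 0.38 (Atf3) from their own average.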

How the data were processed

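RNA-seq was done on 6 libraries of dental epithelial cells, 3 control and 3 Pkm cKO, each made from 200 ng of total RNA. The authors deposited whole-number read counts per gene. The submitters' processing notes name fastp, HISAT2 and build mm39. Versions, annotation, counting program and strand setting are not given in those sources. Reads of overlapping or antisense genes therefore cannot be told apart. Columns were matched to samples by genotype and replicate number in the labels, and every per-sample column was used.

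Genes were kept by filterByExpr, scaled by TMM and compared by edgeR 4.0.16 (quasi-likelihood, robust, R 4.3.3), two-sided, Benjamini-Hochberg adjusted over 15930 genes, with an adjusted p under 0.05 as the threshold. SE was derived from the F statistic as |log2 fold change| over its square root. Log2 CPM used a prior count of 2. Libraries were no duplicates, with a chi-square per gene of at least 28.2. The biological coefficient of variation was 0.300, and members had 54 reads or more per library. Alternatives were other scalings and filters, DESeq2 1.42.0, limma-voom (limma 3.58.1), no robust estimation, each library left out, and the replicate number as a block. The test procedures were tested on simulated counts.

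The members and the 13 other gene lists were chosen with earlier results of these data known. All members are named. Each pathway list gives its most abundant gene by CPM, its 2 lowest p-values and any call, and each cell type list its 2 most abundant genes and any at 0. Genes named after their values were seen are said to be so. The genotype comparison has a single contrast, so no test of a difference between contrasts was made. Promoters came from RefSeq (GRCm38.p6) and exon lengths from GENCODE M21.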

Additional observations from a re-analysis of the deposited data

How the results depend on the processing

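Under 14 alternatives 0 of the 10 members passed the adjusted threshold, and of 140 member values 135 kept their direction, with adjusted p from 0.148 to 0.993. The median of the members ranged from -0.46 to -0.33 under the 8 alternatives that kept all libraries and from -0.70 to -0.018 when 1 library was left out. The 5 values that changed sign came from leaving out 1 library. Jun, Fosb and Nr4a1 reversed without control replicate 2, with leave-one-out ranges of -0.80 to 0.46, -0.69 to 0.017 and -0.40 to 0.35. Junb reversed without control replicate 1 or Pkm cKO replicate 2 (-0.19 to 0.27). The cause was not tested. The count over all genes, 88, moved to 55 with DESeq2 size factors, 518 with no filter beyond 1 read, 1098 with DESeq2, 2 with limma-voom and 2 without robust estimation, and ranged from 0 to 640 when 1 library was left out (0 without any 1 control, when 1532 to 2495 genes had an unadjusted p under 0.05). Of the 88, 55 were higher and 33 lower, against 39 and 16 with DESeq2 size factors and 57 and 18 with upper-quartile scaling. With the replicate block 708 genes and 0 members were called. The labels do not say what a number marks, and deviations of same-numbered libraries correlated at 0.235, 0.015 and 0.215. Control replicates 1 and 3 were closest to the cKO library of the same number, and control replicate 2 to Pkm cKO replicate 1 (0.070). These values do not settle whether the numbers pair the samples, so the block was kept as an alternative only.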

Other observations

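Of the 84 genes at least 2-fold higher in control replicate 2 than in the mean of the other controls, 60 had their highest level of the 6 libraries there. The genes that follow belong to no list here and were named after their values were seen. Slc2a1, the main glucose transporter, stood at 90.4, 408 and 115 CPM among controls and 82.9, 232 and 56.5 CPM among cKO libraries. Vegfa, the endothelial growth factor gene, had 77.5, 184 and 80.1 CPM against 87.8, 139 and 79.5 CPM. Edn2, an endothelin gene, reached 16.9 CPM in control replicate 2 and 1.19 to 2.41 CPM in the other 5 libraries. Others of the 84 peaked elsewhere. Egln3, a prolyl hydroxylase, had 9.14 CPM in control replicate 2 and 9.98 CPM in Pkm cKO replicate 3, and Hif3a, a hypoxia-inducible factor subunit, had 6.11 CPM there and 7.30 CPM in Pkm cKO replicate 1.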
